A study of Mus musculus with 12 samples.

Results

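Clathrin endocytosis genes code for the machinery that bends the cell membrane into coated pits and cuts them off as vesicles. CALM, the protein of the gene Picalm, belongs to this machinery, and its fusion to AF10 is a leukaemia oncoprotein. The genes described here are 43 named members of that machinery, chosen by symbol, with earlier results of these data known. All 43 had a probe set, out of 19938 genes on the arrays. Each gene is represented by its brightest probe set annotated to that gene alone. No probe set used here carried the symbol Picalm, so the endogenous partner itself was not measured.

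The samples were bone marrow cells of adult mice (strain labelled C57/BL6/C3H) in 4 groups of 3 biological replicates, 12 arrays in all. The groups were marrow transduced with the empty vector MIG, with CALM-AF10, with CALM-AF10 ΔOM-LZ, or with CALM(400-648)+AF10 (677-758), called the minimal fusion here. All groups, MIG included, came from donors given 5-fluorouracil, were stimulated for 48 h, and were transduced on irradiated (40 Gy) GFP+E86 producer cells with protamine sulfate at 5 µg/ml. Cells were sorted for GFP, and RNA was taken 96 h after transduction, so the groups are short-term cultures. In bulk RNA of this kind, fewer cells of a type and less RNA per cell cannot be told apart. The labels do not say which mice or cultures a replicate number stands for, so the p-values measure only the spread between these arrays.

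A clathrin coat is built from 3-legged complexes of heavy and light chains, and the AP2 complex ties it to membrane lipid and to the receptors being taken up. Early scaffold proteins start the pit, adaptors add cargo and curvature, dynamin cuts the neck, and lipid phosphatases and the chaperone Hsc70 strip the coat. CALM binds membrane phosphoinositides through its N-terminal ANTH domain and binds clathrin and AP2 through its C-terminal part. The CALM fragment of the minimal fusion begins at residue 400, after the ANTH domain. OM-LZ, the stretch missing from CALM-AF10 ΔOM-LZ, is the octapeptide motif and leucine zipper of AF10, which binds the histone methyltransferase DOT1L. In blood cells clathrin uptake removes cytokine and growth factor receptors from the surface and brings in iron-loaded transferrin.

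No member passed the test in any of 8 comparisons among the constructs. Values are log2 intensities, and the test was limma over 12 arrays with p-values adjusted over 23410 probe sets and a threshold of 0.05. The lowest adjusted p of any member was 0.387, for Arrb1 between the minimal fusion and MIG. Of all probe sets, 0.0342% passed in that comparison, 0.0171% between the minimal fusion and CALM-AF10 ΔOM-LZ, and 0.00427% between the minimal fusion and CALM-AF10. The percentage was 0 for CALM-AF10 or CALM-AF10 ΔOM-LZ against MIG and for those fusions against each other. It was 0.00427% for the 3 fusions together against MIG and 0.0171% for the minimal fusion against the mean of CALM-AF10 and CALM-AF10 ΔOM-LZ. In the F test of any difference among the 4 constructs, 0.00854% of all probe sets passed and 0 members did (lowest adjusted p 0.918, Arrb1). At an unadjusted p under 0.05, 5 of 43 members passed that F test (11.6%), against 4.27% of all genes. Fitting limma with a variance trend and robust variances also left 0 members past the adjusted threshold in every comparison.

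At an unadjusted p under 0.05, 5 members differed between the minimal fusion and MIG (7.72% of all genes did), 3 between CALM-AF10 and MIG (5.13%) and 2 between CALM-AF10 ΔOM-LZ and MIG (3.87%). Between fusions the count was 1 for the minimal fusion against CALM-AF10 (1.87%), 6 against CALM-AF10 ΔOM-LZ (4.34%) and 2 for CALM-AF10 against CALM-AF10 ΔOM-LZ (2.38%). It was 3 for the 3 fusions against MIG (6.86%) and 4 for the minimal fusion against the other fusions together (3.31%).

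**Figure D1:**
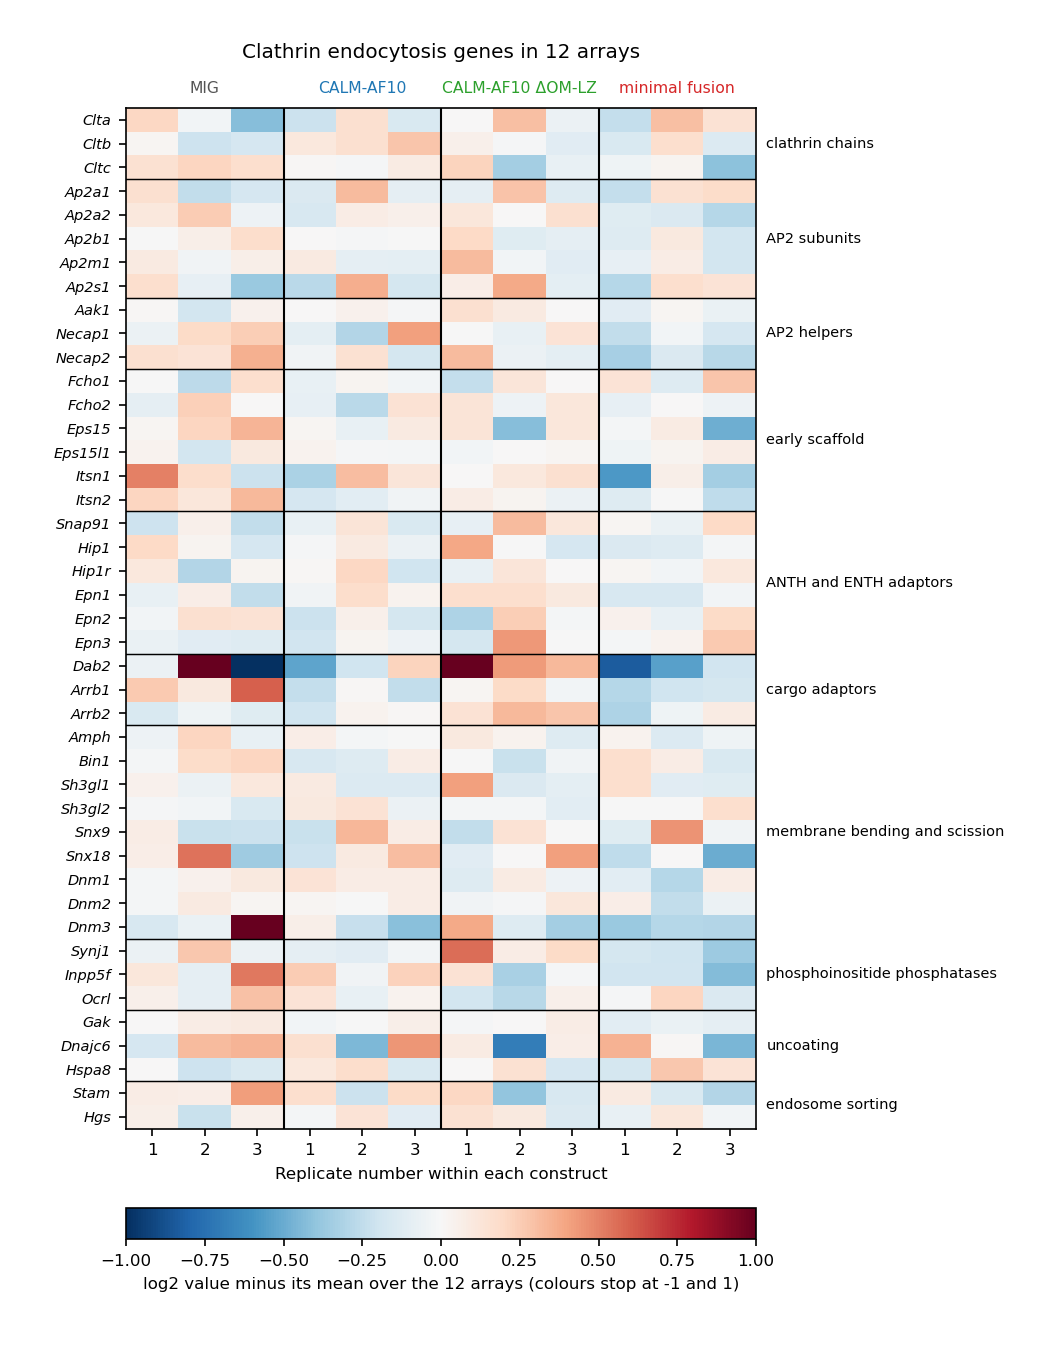
Heatmap of the 43 members (rows, grouped by role) in 12 arrays (columns, replicates 1 to 3 of each construct); colour gives the log2 value minus the gene's mean over the 12 arrays, with colours stopping at -1 and 1. Most rows are pale throughout, Dab2 and Dnm3 hold the strongest colours, and the minimal fusion has the lowest mean for 23 of the 43 members.

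The members varied little. The median range of a member over the 12 arrays was 0.56 log2 units, against 0.58 for all genes, and the median SD within a construct was 0.17, against 0.18. Between the minimal fusion and MIG the members' median absolute log2 fold change was 0.14, against 0.12 for all genes. There 1 member, Dnm3 (probe set at the 26.8th percentile of brightness), differed by more than 1.5-fold. The other comparisons of a single fusion with MIG also held 1 such member each, Dnm3 under CALM-AF10 and Dab2 under CALM-AF10 ΔOM-LZ. Of all 19938 genes, 919 differed that much from MIG in the minimal fusion, 419 in CALM-AF10 and 346 in CALM-AF10 ΔOM-LZ.

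Within this narrow range the minimal fusion arrays stood lowest. Its mean was the lowest of the 4 constructs for 23 of 43 members (53.5%), against 26.7% of all genes. MIG was lowest for 13 members (30.2%), near the 31.2% of all genes. CALM-AF10 ΔOM-LZ was lowest for 4 (9.30%, against 22.6%) and CALM-AF10 for 3 (6.98%, against 19.5%). MIG was highest for 18 members (41.9%, against 26.7%) and CALM-AF10 ΔOM-LZ for 14 (32.6%, against 23.8%). The count of members lowest in the minimal fusion was 17 after quantile normalization (39.5%, against 22.2% of genes) and 18 after median centring (41.9%, against 18.6%). The module mean averages, over the members, each log2 value after subtracting that gene's 12-array average. In MIG replicates 1, 2 and 3 it was 0.04, 0.06 and 0.04, and in the minimal fusion -0.12, -0.02 and -0.10. CALM-AF10 gave -0.05, 0.02 and 0.01, and CALM-AF10 ΔOM-LZ gave 0.11, 0.02 and 0.00329. All 3 minimal fusion arrays lay below all 3 MIG arrays, but minimal fusion replicate 2 lay above CALM-AF10 replicate 1. The same mean over all genes was 0.00349, 0.04 and -0.01 in MIG and -0.00165, -0.03 and -0.03 in the minimal fusion. In minimal fusion replicate 2 the module mean was therefore no lower than the mean over all genes. After median centring the minimal fusion (-0.13 to 0.07) and MIG (0.000166 to 0.06) overlapped.

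**Figure D2:**
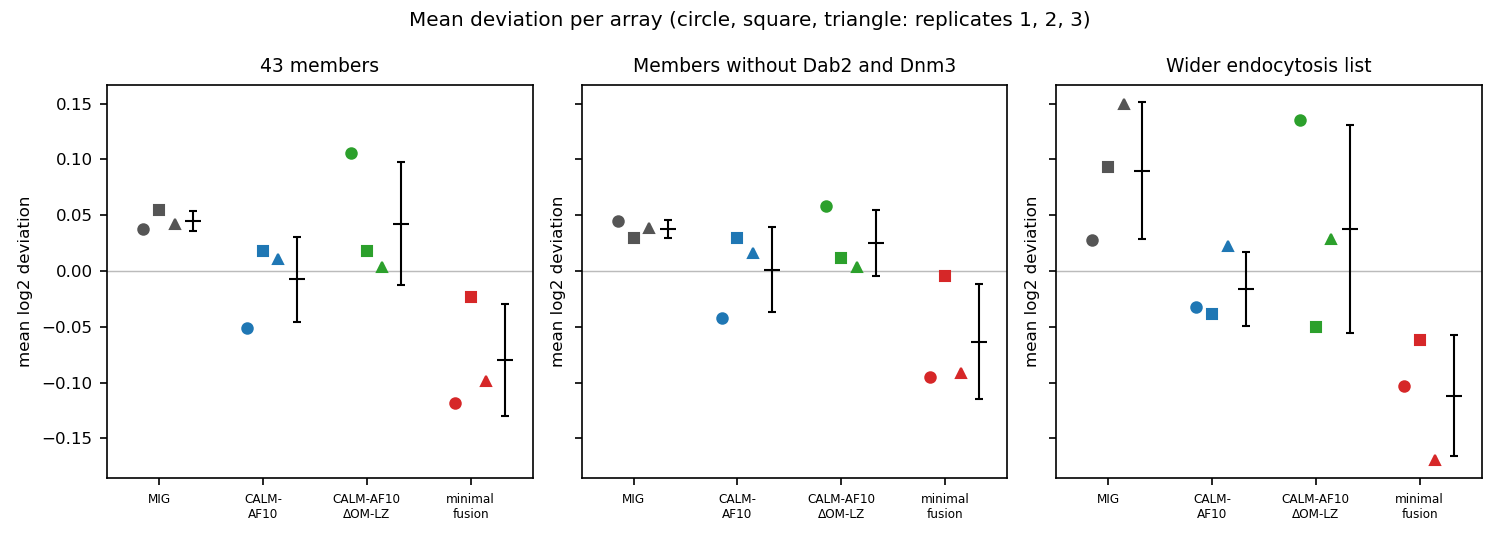
Mean log2 deviation per array (vertical axis) by construct for the 43 members, for the members without Dab2 and Dnm3, and for a wider list of 71 endocytosis genes; symbols are replicates and bars the mean and SD of 3 arrays. Minimal fusion arrays lie below MIG arrays in all 3 panels, by a mean of -0.13 for the 43 members (-0.03 for all genes, not drawn).

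Marker lists of blood cell types were read on the same arrays, as the mean log2 level of each list and with no test. Among the lists whose ranges are given here for both MIG and the minimal fusion, only that of megakaryocytes and platelets did not overlap. Markers of monocytes and macrophages (9 of 10 measured) had a mean log2 level of 8.16 to 9.80 in MIG arrays and 8.06 to 8.22 in minimal fusion arrays. The corresponding ranges were 9.79 to 11.68 and 9.08 to 9.92 for mast cells and basophils (9 of 9 markers), and 8.34 to 9.50 and 7.74 to 8.17 for megakaryocytes and platelets (8 of 11). Late neutrophil markers (11 of 11) spanned 8.65 to 9.77 and 8.37 to 8.90. Of these lists 0 markers had a probe set under the 25th percentile of brightness, and levels of different lists cannot be set against each other. General marrow and progenitor markers (6 of 6, among them Ptprc and Kit) spanned 10.08 to 10.40 in MIG and 10.29 to 10.50 in the minimal fusion. B cell (6 of 7), T and NK cell (6 of 6) and fibroblast and producer-line markers (8 of 8) held 2, 3 and 1 probe sets under that percentile, and their list means were at most 6.25, 5.31 and 7.26 on any array. Single markers of these lists were bright, among them Thy1 (up to 11.26), Pdgfrb (up to 10.20) and Cd79b (up to 9.02), which were named after their values were seen. The list mean of erythroid markers (5 of 8) spanned 6.17 to 6.56, and primary granule markers of neutrophils (4 of 4) 11.03 to 13.07. The part of cell makeup in the differences between constructs was not tested.

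Of the 3 clathrin chain genes, 1 had a mean below MIG and 2 a mean above MIG in the minimal fusion. Cltc, the heavy chain that forms the legs of the coat, had log2 values of 11.57, 11.63 and 11.59 in MIG and 11.38, 11.45 and 11.01 in the minimal fusion. CALM-AF10 arrays read 11.43, 11.41 and 11.50, and CALM-AF10 ΔOM-LZ arrays 11.64, 11.08 and 11.34. Every MIG array was above every CALM-AF10 and minimal fusion array, while CALM-AF10 ΔOM-LZ replicate 1 lay above all MIG arrays. The log2 fold change against MIG was -0.32 in the minimal fusion (SE 0.15, 95% interval -0.64 to 0.01, adjusted p = 0.666), -0.15 in CALM-AF10 and -0.24 in CALM-AF10 ΔOM-LZ.

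The light chains regulate coat assembly. Cltb, light chain b, read 9.35, 9.13 and 9.17 in MIG and 9.44, 9.49 and 9.61 in CALM-AF10, with no overlap. It read 9.39, 9.33 and 9.22 in CALM-AF10 ΔOM-LZ and 9.18, 9.50 and 9.20 in the minimal fusion, which overlap MIG. The minimal fusion and CALM-AF10 also overlapped. In CALM-AF10 the log2 fold change against MIG was 0.30 (SE 0.11, 95% interval 0.05 to 0.55, adjusted p = 0.854). Clta, light chain a, read 9.72, 9.49 and 9.09 in MIG, 9.30, 9.68 and 9.36 in CALM-AF10, 9.52, 9.81 and 9.46 in CALM-AF10 ΔOM-LZ and 9.28, 9.82 and 9.67 in the minimal fusion. Its arrays overlapped between all constructs. The log2 fold changes against MIG were 0.15, 0.01 and 0.16 for the minimal fusion, CALM-AF10 and CALM-AF10 ΔOM-LZ, and that of CALM-AF10 turned negative after quantile normalization (-0.00526).

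AP2, the adaptor that links clathrin to the membrane, has 5 subunit genes on the list, of which 3 stood below MIG in the minimal fusion and 2 above. Ap2a2, a large alpha subunit that binds phosphoinositides and accessory proteins, read 10.15, 10.30 and 9.99 in MIG and 9.93, 9.90 and 9.76 in the minimal fusion. CALM-AF10 arrays read 9.88, 10.12 and 10.10, and CALM-AF10 ΔOM-LZ arrays 10.15, 10.05 and 10.20. The minimal fusion lay below MIG and below CALM-AF10 ΔOM-LZ without overlap, and CALM-AF10 replicate 1 lay among the minimal fusion arrays. The log2 fold change of the minimal fusion was -0.29 against MIG (SE 0.11, adjusted p = 0.574) and -0.28 against CALM-AF10 ΔOM-LZ (adjusted p = 0.999). Its paralogue Ap2a1, the other alpha subunit, differed by 0.12 between the minimal fusion and MIG, with overlapping arrays. The beta subunit gene Ap2b1, which binds clathrin, gave -0.15, the cargo-binding mu subunit gene Ap2m1 -0.10 and the small sigma subunit gene Ap2s1 0.10. All 3 overlapped between these groups.

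Of the genes that act on AP2, 3 of 3 had a mean below MIG in the minimal fusion, Aak1 only as deposited. Necap2, whose protein binds the AP2 appendages, read 10.73, 10.71 and 10.93 in MIG and 10.24, 10.43 and 10.30 in the minimal fusion, with no overlap. CALM-AF10 gave 10.54, 10.73 and 10.40, and CALM-AF10 ΔOM-LZ gave 10.89, 10.52 and 10.47. The minimal fusion was 1.38-fold below MIG (log2 fold change -0.46, SE 0.13, 95% interval -0.76 to -0.17, adjusted p = 0.435). It also lay below CALM-AF10 ΔOM-LZ without overlap (-0.30, adjusted p = 0.999). The log2 fold changes against MIG were -0.24 in CALM-AF10 and -0.16 in CALM-AF10 ΔOM-LZ. Necap1, its paralogue, gave -0.27 in the minimal fusion with overlapping arrays. Aak1, the kinase that switches on AP2 by phosphorylating its mu subunit, gave -0.01 on its brighter probe set, and the sign turned after quantile normalization (0.03) and median centring (0.04). The other Aak1 probe set read 8.69, 8.47 and 8.61 in MIG, 8.28, 8.44 and 8.35 in CALM-AF10, 8.53, 8.63 and 8.43 in CALM-AF10 ΔOM-LZ and 8.54, 8.59 and 8.53 in the minimal fusion. There CALM-AF10 lay below MIG (-0.24, SE 0.09, adjusted p = 0.876) and below the minimal fusion without overlap, while the minimal fusion overlapped MIG, so the Aak1 probe sets disagree on CALM-AF10, whose brighter probe set gave 0.05 against MIG.

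Among the early scaffold genes, Itsn2 separated MIG from every fusion array. Itsn2 codes for intersectin-2, a scaffold that brings actin regulators and other pit proteins together. It read 9.86, 9.76 and 9.97 in MIG, 9.48, 9.54 and 9.61 in CALM-AF10, 9.72, 9.67 and 9.59 in CALM-AF10 ΔOM-LZ and 9.52, 9.64 and 9.39 in the minimal fusion. All 9 fusion arrays were below all 3 MIG arrays, as for 0.602% of all genes, and Itsn2 was the only member of the 43 to show this. The log2 fold change of the 3 fusions together against MIG was -0.29 (SE 0.08, 95% interval -0.46 to -0.11, adjusted p = 0.508). Against MIG it was -0.34 for the minimal fusion (adjusted p = 0.435), -0.32 for CALM-AF10 (adjusted p = 0.738) and -0.20 for CALM-AF10 ΔOM-LZ (adjusted p = 0.999). These 3 comparisons share the MIG arrays. The fusions did not separate from each other, with a log2 difference of -0.03 between the minimal fusion and CALM-AF10 (95% interval -0.24 to 0.19), which turned positive after quantile normalization (0.04) and median centring (0.00658).

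The other early scaffold genes overlapped between the minimal fusion and MIG. Itsn1, the intersectin best known from neurons, gave -0.44 (SE 0.22), with MIG arrays at 7.76, 7.44 and 7.04 and minimal fusion arrays at 6.68, 7.32 and 6.92. Eps15, which marks the rim of the pit, gave -0.33 (SE 0.18). Its relative Eps15l1 gave 0.04 (SE 0.09, 95% interval -0.16 to 0.23), one of the narrowest intervals of the members. Fcho1 and Fcho2, the F-BAR proteins that arrive first, gave 0.13 and -0.10.

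The closest relatives of CALM, which share its ANTH domain, differed little between constructs. Snap91 (probe set at the 47.0th percentile of brightness) codes for AP180, a relative of CALM known from synapses. It read 6.22, 6.47 and 6.18 in MIG, 6.35, 6.55 and 6.27 in CALM-AF10, 6.34, 6.74 and 6.53 in CALM-AF10 ΔOM-LZ and 6.44, 6.35 and 6.62 in the minimal fusion. The arrays of all 4 constructs overlapped, and the log2 fold changes against MIG were 0.10, 0.25 and 0.18 in that order of fusions. Hip1, which links clathrin to actin, read 8.57, 8.39 and 8.20 in MIG, 8.36, 8.46 and 8.31 in CALM-AF10, 8.76, 8.36 and 8.20 in CALM-AF10 ΔOM-LZ and 8.22, 8.24 and 8.35 in the minimal fusion. Its differences from MIG were -0.01, 0.05 and -0.12. Hip1r, its relative, read 8.13, 7.73 and 8.05 in MIG, 8.03, 8.22 and 7.82 in CALM-AF10, 7.95, 8.14 and 8.02 in CALM-AF10 ΔOM-LZ and 8.03, 7.99 and 8.12 in the minimal fusion. For Hip1r the largest difference from MIG was 0.083, in the minimal fusion, with a 95% interval from -0.20 to 0.37. In none of these 3 genes did the arrays of any fusion lie apart from MIG.

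Epsins carry the related ENTH domain, which inserts into the membrane and bends it. Epn1 read 10.12, 10.12 and 10.04 in CALM-AF10 ΔOM-LZ, above all MIG arrays (9.88, 10.01 and 9.70) and all minimal fusion arrays (9.79, 9.79 and 9.92). CALM-AF10 arrays overlapped the other 3 constructs, at 9.91, 10.12 and 9.98. The log2 fold change of CALM-AF10 ΔOM-LZ against MIG was 0.23 (SE 0.10, adjusted p = 0.999) and 0.15 without MIG replicate 3. That of the minimal fusion against CALM-AF10 ΔOM-LZ was -0.26 (SE 0.10, adjusted p = 0.999). Minimal fusion arrays lay above MIG without overlap for Epn3, an epithelial epsin (0.19, adjusted p = 0.807, 53.1th percentile of brightness). Epn2 gave -0.04 with overlapping arrays, and its sign turned after median centring (0.00224).

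The beta-arrestins, which carry activated G protein-coupled receptors into coated pits, include Arrb1, the member with the lowest F test p. Arrb1 read 10.14, 9.97 and 10.47 in MIG, 9.63, 9.89 and 9.63 in CALM-AF10, 9.89, 10.06 and 9.85 in CALM-AF10 ΔOM-LZ and 9.59, 9.68 and 9.70 in the minimal fusion. All CALM-AF10 and minimal fusion arrays lay below all MIG arrays, while CALM-AF10 ΔOM-LZ replicate 2 lay above MIG replicate 2. Arrb1 stood 1.45-fold below MIG in the minimal fusion (log2 fold change -0.54, SE 0.13, 95% interval -0.83 to -0.25, adjusted p = 0.387). It stood 1.39-fold lower in CALM-AF10 (-0.47, adjusted p = 0.738), and the difference was -0.26 in CALM-AF10 ΔOM-LZ (adjusted p = 0.999). The minimal fusion lay below CALM-AF10 ΔOM-LZ without overlap (-0.28, SE 0.13, adjusted p = 0.999).

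Arrb2, the other beta-arrestin, followed a different order. It read 10.52, 10.63 and 10.55 in MIG, 10.48, 10.72 and 10.69 in CALM-AF10, 10.82, 11.00 and 10.95 in CALM-AF10 ΔOM-LZ and 10.37, 10.63 and 10.76 in the minimal fusion. CALM-AF10 ΔOM-LZ arrays lay above all the other 9 arrays. The log2 fold change of CALM-AF10 ΔOM-LZ against MIG was 0.36 (SE 0.12, 95% interval 0.10 to 0.61, adjusted p = 0.999). CALM-AF10 and the minimal fusion lay below CALM-AF10 ΔOM-LZ by log2 differences of -0.30 and -0.34 (SE 0.12 each) and differed from MIG by 0.06 and 0.02. The score of a marker list is its mean deviation, computed as for the module mean. Late neutrophil markers had their highest scores in CALM-AF10 ΔOM-LZ replicates 2 and 3 (0.81 and 0.78), and replicate 1 had 0.20. MIG scores were 0.04, 0.57 and -0.55, CALM-AF10 scores -0.52, 0.17 and 0.17 and minimal fusion scores -0.82, -0.56 and -0.30. MIG replicate 2 thus scored above CALM-AF10 ΔOM-LZ replicate 1 but had a lower Arrb2 value. The part of late neutrophils in the Arrb2 values was not tested.

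**Figure D3:**
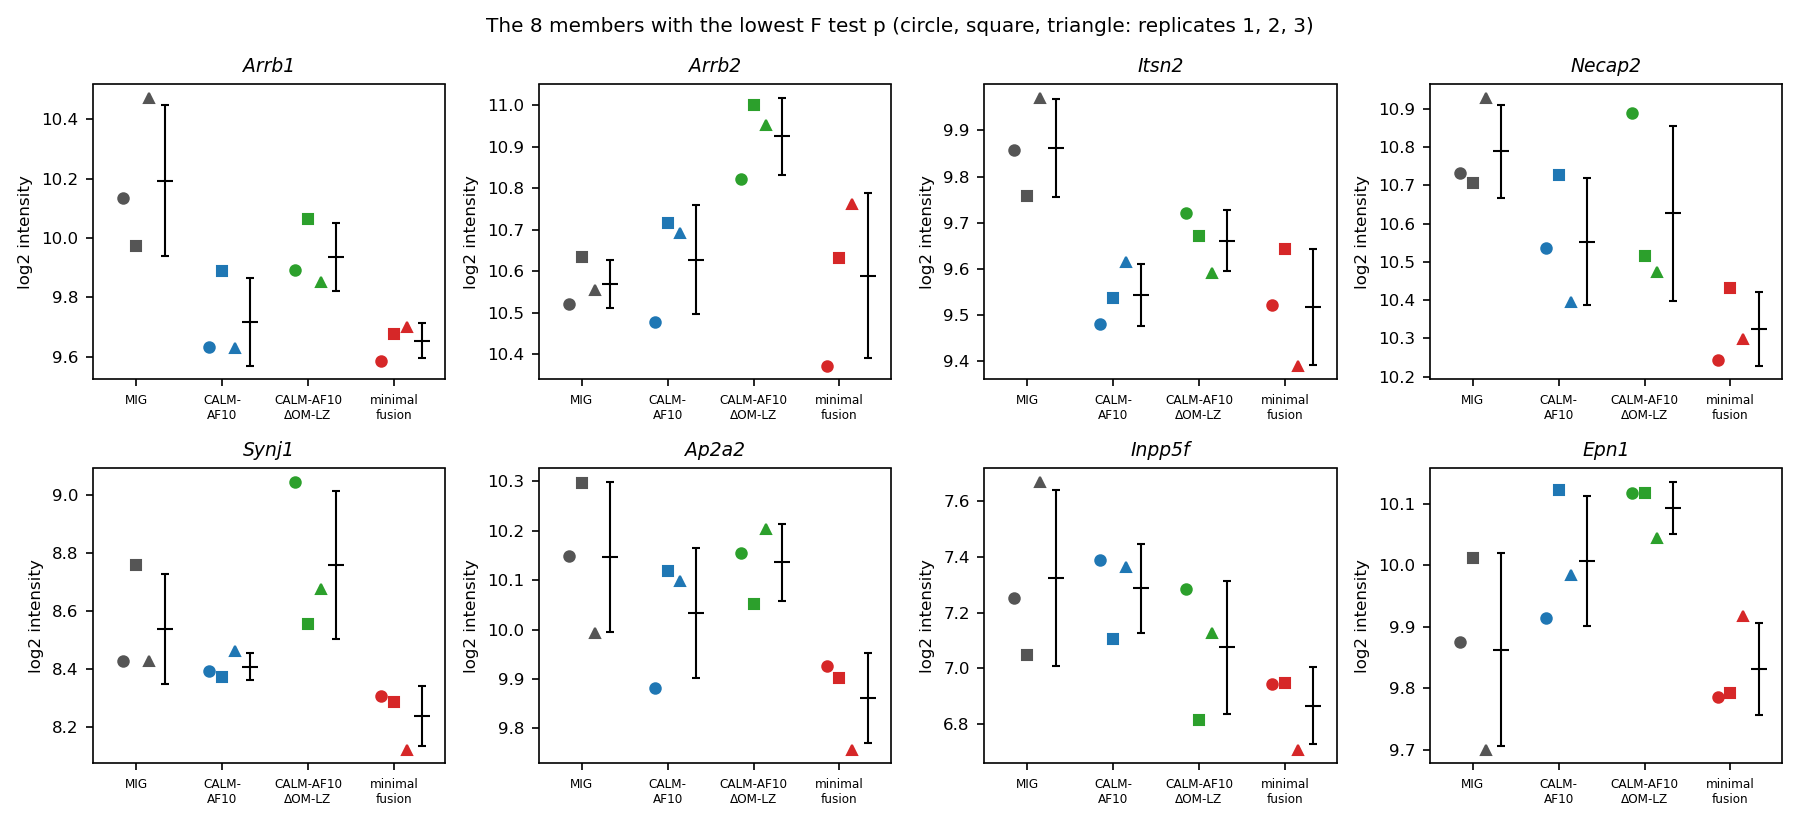
Log2 intensity (vertical axis, a different range in each panel) of the 8 members with the lowest F test p by construct; symbols are replicates, bars the mean and SD of 3 arrays. Arrb1 and Itsn2 are highest in MIG, Arrb2 is highest in CALM-AF10 ΔOM-LZ, and Synj1 is lowest in the minimal fusion.

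Dab2 and Dnm3 had the widest spread within constructs and were chosen for description after their values were seen. Dab2, an adaptor for low-density lipoprotein receptors and integrins, read 9.01, 10.29 and 7.44 in MIG and 10.84, 9.49 and 9.39 in CALM-AF10 ΔOM-LZ. CALM-AF10 gave 8.54, 8.87 and 9.28, and the minimal fusion gave 8.23, 8.52 and 8.87. MIG spanned the lowest of the 12 values and the second highest. Monocyte and macrophage scores were -0.03, 1.15 and -0.49 in MIG replicates 1, 2 and 3 and 1.15, -0.02 and 0.28 in CALM-AF10 ΔOM-LZ. CALM-AF10 scores were -0.37, -0.21 and 0.09 and minimal fusion scores -0.53, -0.60 and -0.43. In each of the 4 constructs the highest score fell on the array with the highest Dab2. The remaining arrays were ordered differently by score and by Dab2 in CALM-AF10 ΔOM-LZ and in the minimal fusion. For Dab2 the minimal fusion was 2.58-fold below CALM-AF10 ΔOM-LZ, without overlap (log2 fold change -1.36, SE 0.60, adjusted p = 0.999). The part of the monocytes in this was not tested. A dimmer Dab2 probe set, at the 9.82nd percentile of brightness, stayed between 4.19 and 4.41 over all arrays.

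Dnm3 codes for a dynamin of brain and testis that megakaryocytes also use. Its probe set was dim, at the 26.8th percentile of brightness. It read 5.11, 5.21 and 7.13 in MIG, and only MIG replicate 3 stood out from the other 11 arrays. CALM-AF10 gave 5.33, 5.04 and 4.85, CALM-AF10 ΔOM-LZ 5.65, 5.15 and 4.93 and the minimal fusion 4.90, 4.99 and 4.98. MIG replicate 3 also had the highest mast cell score (1.52) and the highest megakaryocyte score (1.01) of all arrays. However, MIG replicate 2 had a megakaryocyte score of 0.99 and a Dnm3 value of 5.21. CALM-AF10 ΔOM-LZ replicate 1 had a mast cell score of 1.38, a megakaryocyte score of 0.84 and a Dnm3 value of 5.65. The part of these cell types in the Dnm3 values was not tested. Minimal fusion arrays lay below MIG without overlap, by 1.82-fold in the mean (log2 fold change -0.86, SE 0.44, 95% interval -1.82 to 0.10, adjusted p = 0.69).

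**Figure D4:**
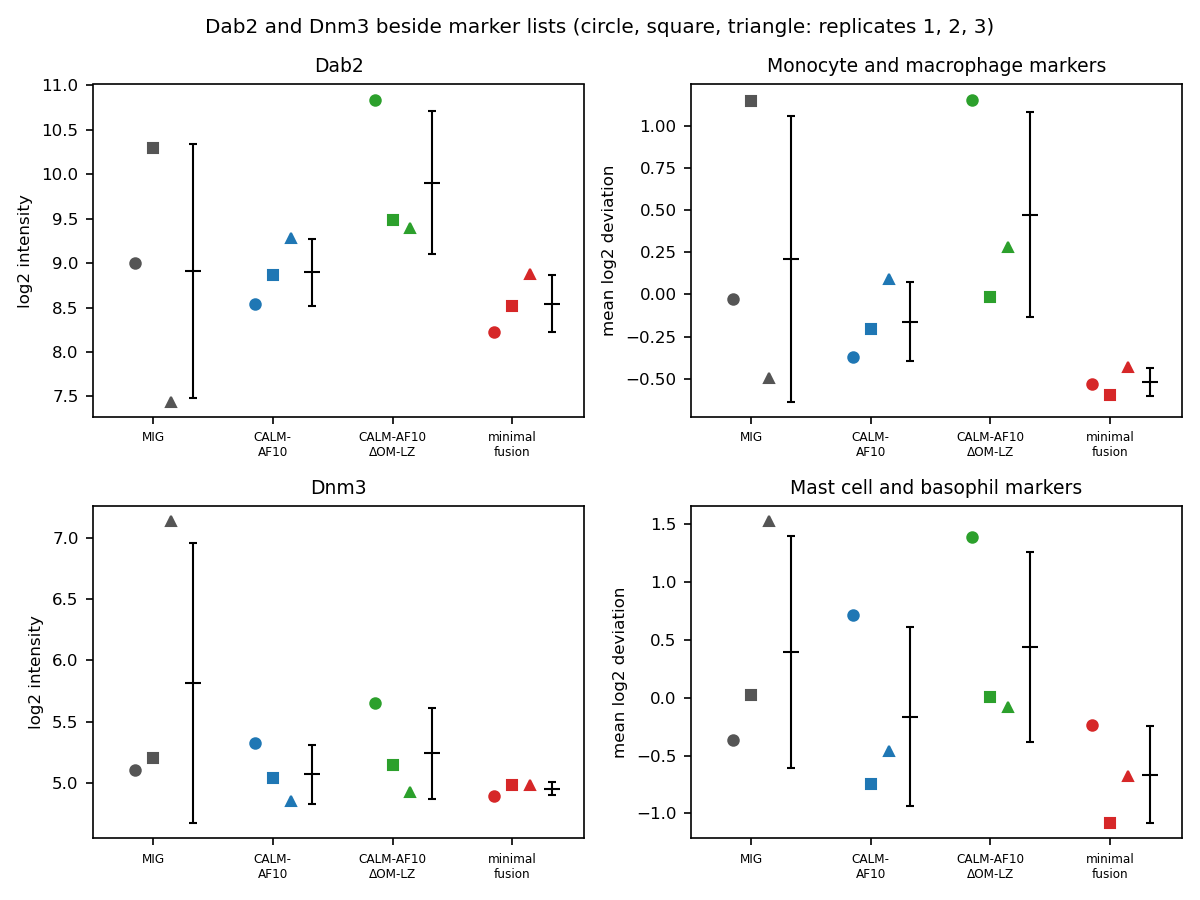
Log2 intensity of Dab2 and Dnm3 (left) and mean log2 deviation of marker lists of monocytes and macrophages and of mast cells and basophils (right) by construct; symbols are replicates, bars the mean and SD of 3 arrays. Dab2 is highest on CALM-AF10 ΔOM-LZ replicate 1 and MIG replicate 2, the arrays with monocyte scores of 1.15, and Dnm3 stands out on MIG replicate 3.

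No other bending or scission gene differed from MIG by more than 1.5-fold. Dnm2, the dynamin of all tissues that cuts the vesicle neck, gave -0.11 in the minimal fusion (SE 0.10, 95% interval -0.32 to 0.10) and 0.000803 in CALM-AF10. The latter sign turned after quantile normalization (-0.03). Dnm1, the neuronal dynamin, gave -0.14 in the minimal fusion. Snx18 and Snx9, sorting nexins that recruit dynamin, gave -0.33 and 0.22 with overlapping arrays. Bin1 and Amph, amphiphysins that sense curvature, gave -0.10 and -0.08. The endophilin gene Sh3gl1 gave -0.05, and its neuronal relative Sh3gl2 gave 0.11 without overlap (adjusted p = 0.817, 45.4th percentile of brightness). Amph had the dimmest probe set of the members, at the 18.1th percentile of brightness.

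All 3 phosphatase genes, whose proteins strip phosphoinositides from the coat, had a lower mean in the minimal fusion than MIG had. Synj1, synaptojanin-1, read 8.43, 8.76 and 8.43 in MIG, 8.39, 8.37 and 8.46 in CALM-AF10, 9.05, 8.56 and 8.68 in CALM-AF10 ΔOM-LZ and 8.31, 8.28 and 8.12 in the minimal fusion. The minimal fusion arrays lay below all the other 9 arrays. The minimal fusion was 1.44-fold below CALM-AF10 ΔOM-LZ (log2 fold change -0.52, SE 0.14, 95% interval -0.82 to -0.22, adjusted p = 0.642). Against MIG it gave -0.30 (adjusted p = 0.662) and against CALM-AF10 -0.17. CALM-AF10 also lay below CALM-AF10 ΔOM-LZ without overlap (-0.35, SE 0.14), and the difference was -0.21 without CALM-AF10 ΔOM-LZ replicate 1. Inpp5f, a phosphatase acting after synaptojanin, read 6.94, 6.95 and 6.71 in the minimal fusion, below all MIG arrays (7.25, 7.05 and 7.67) and all CALM-AF10 arrays (7.39, 7.10 and 7.37). CALM-AF10 ΔOM-LZ spanned both, at 7.29, 6.82 and 7.13. The log2 fold change of the minimal fusion was -0.46 against MIG (SE 0.17, adjusted p = 0.574) and -0.42 against CALM-AF10. Ocrl, the phosphatase lost in Lowe syndrome, gave -0.06 against MIG with overlapping arrays.

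For 36 of the 43 members a promoter sequence was at hand (RefSeq, GRCm38.p6), and those of Itsn2 and Synj1 are shown because these genes had the lowest F test p among them. Each is the 250 bases before the start, 5′ to 3′ on the gene's strand, with GC boxes in capitals. Itsn2 lies on the plus strand at chr12:4592758-4593007, and Synj1 on the minus strand at chr16:91011309-91011558, for the first of 2 starts listed.
Itsn2: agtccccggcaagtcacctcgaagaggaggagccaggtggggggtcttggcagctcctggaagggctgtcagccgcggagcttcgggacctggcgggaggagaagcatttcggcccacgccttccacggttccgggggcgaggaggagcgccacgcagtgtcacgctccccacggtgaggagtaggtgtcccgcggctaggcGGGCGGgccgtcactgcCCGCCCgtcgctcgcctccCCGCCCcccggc
Synj1: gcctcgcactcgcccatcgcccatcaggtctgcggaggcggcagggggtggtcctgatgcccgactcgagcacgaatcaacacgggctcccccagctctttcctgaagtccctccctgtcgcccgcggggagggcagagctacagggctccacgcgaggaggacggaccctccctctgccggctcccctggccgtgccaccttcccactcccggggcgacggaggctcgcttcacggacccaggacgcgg
The Itsn2 window held 3 GC boxes (letters GGGCGG, read on both strands), to which Sp1 binds, and the Synj1 window held 0. Neither held a CCAAT box (letters CCAAT), an E-box (letters CACGTG) or a TATA box (letters TATAAA) on either strand. A GC box was present in 21 of 36 member windows (58.3%) and in 32.9% of 27025 windows of all genes. The windows of members were also richer in G and C (median 59.6%, against 52.0%). The shares of members and of all genes were 19.4% and 34.5% for the CCAAT box, 11.1% and 6.05% for the E-box, and 2.78% and 13.0% for the TATA box. Each motif was counted on its own, so matches of different motifs may overlap. A match in these windows is a description of letters, and the array values do not bear on binding.

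Coat removal genes held both the steadiest member and one of the most variable. Gak, the cofactor of all tissues that recruits Hsc70 to the coat, read 11.41, 11.49 and 11.50 in MIG and 11.31, 11.35 and 11.32 in the minimal fusion. CALM-AF10 and CALM-AF10 ΔOM-LZ gave 11.39, 11.41 and 11.47 and 11.40, 11.42 and 11.49. The minimal fusion lay below all the other 9 arrays, by a log2 difference of -0.14 from MIG (SE 0.07, adjusted p = 0.708). The SD of Gak within constructs was 0.04, the lowest of the members. Its relative Dnajc6, auxilin, differed by -0.19 (SE 0.29) and ranged over replicates from 9.62 to 10.76. Hspa8, which codes for Hsc70, gave 0.20 in the minimal fusion on its brightest probe set, with overlapping arrays. Stam and Hgs, which pass ubiquitinated receptors on to endosomal sorting, gave -0.31 and 0.04.

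**Figure D5:**
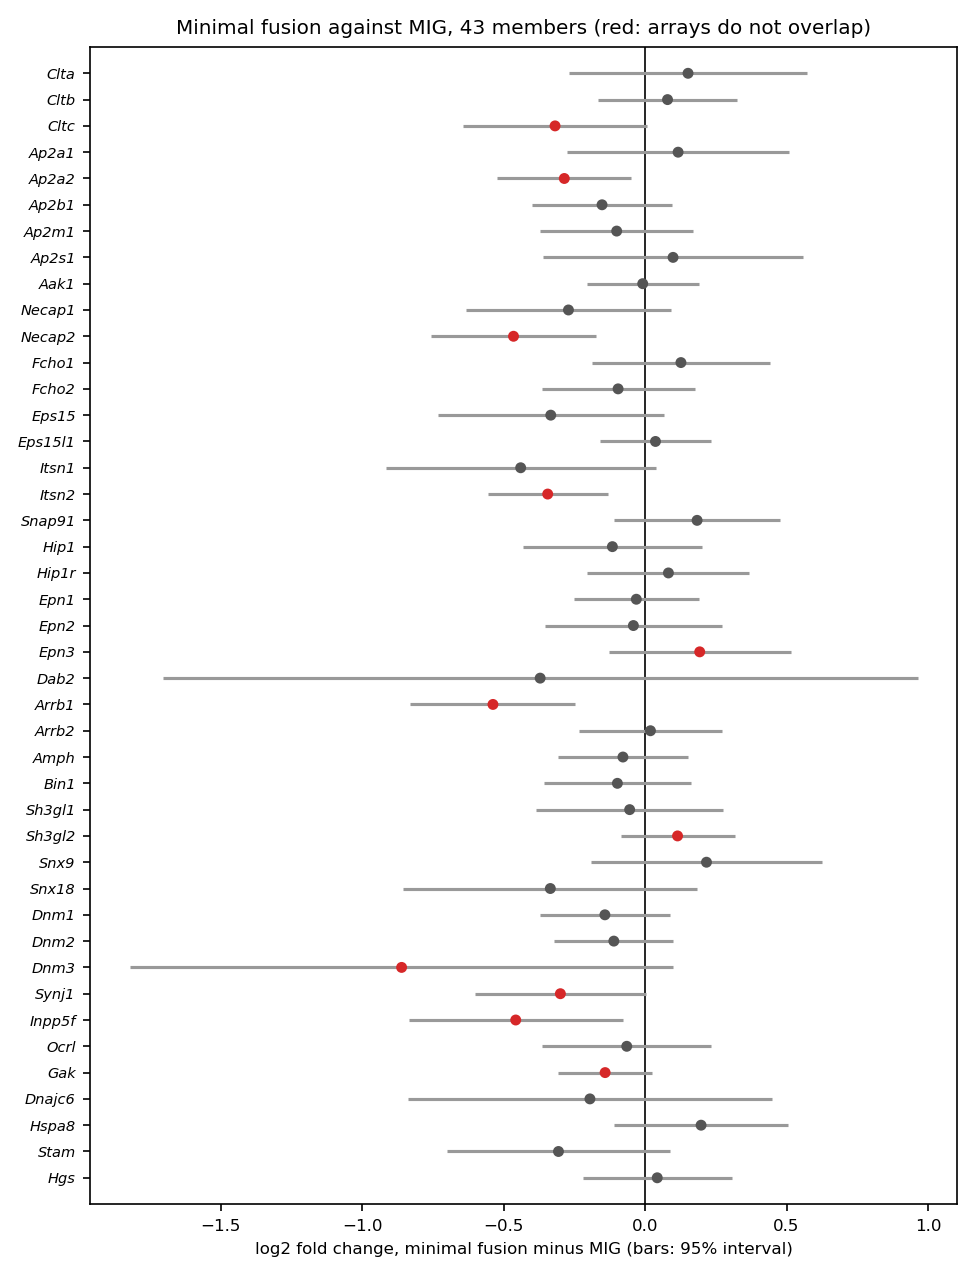
Log2 fold change of the minimal fusion against MIG (horizontal axis) with 95% interval for the 43 members (rows, ordered by role); red points are members whose arrays do not overlap between the groups. Of the 11 red points 9 lie below 0 (Cltc, Ap2a2, Necap2, Itsn2, Arrb1, Dnm3, Synj1, Inpp5f and Gak) and 2 above (Epn3 and Sh3gl2).

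Counted over the list, 29 of 43 members had a lower mean in the minimal fusion than MIG had and 14 a higher one, against 47.9% of all genes lower. The members' median log2 fold change was -0.10, against 0.01 for all genes. The median was -0.05 after quantile normalization (27 lower) and -0.05 after median centring (26 lower). Arrays did not overlap for 9 members lower and 2 higher, where 6.21% and 6.15% of all genes did so. At an unadjusted p under 0.05, 5 members were lower (Arrb1, Itsn2, Necap2, Inpp5f and Ap2a2) and 0 higher, against 4.22% and 3.51% of all genes. The module mean difference was -0.13, and -0.10 without Dab2 and Dnm3, against -0.03 for the mean over all genes.

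For CALM-AF10 against MIG, 25 members stood lower (48% of all genes did) and 18 higher, with a median of -0.02. That median was -0.00442 without CALM-AF10 replicate 1 and -0.0506 without CALM-AF10 replicate 3. Arrb1, Itsn2 and Cltc lay below MIG without overlap and Cltb above, where 3.27% of all genes lay below and 5.94% above. For CALM-AF10 ΔOM-LZ against MIG, 21 stood lower (47.4% of all genes) and 22 higher, with a median of 0.01, which turned to -0.0208 without MIG replicate 2. Itsn2 lay below without overlap and Arrb2 and Epn1 above, where 4.23% and 3.57% of all genes did.

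The fusions were also set against each other. In the minimal fusion 31 of 43 members stood below CALM-AF10 ΔOM-LZ (median -0.08, 49.4% of all genes lower), 8 of them without overlap, where 4.34% of all genes lay below. These 8 were Ap2a2, Necap2, Epn1, Dab2, Arrb1, Arrb2, Synj1 and Gak, and Sh3gl2 lay above, as 3.74% of all genes did. After median centring 27 stood lower (median -0.0444, 38.4% of all genes lower). Against CALM-AF10, 28 stood lower (median -0.06, 52.3% of all genes lower). After quantile normalization 22 did (median -0.00823, 47.6% of all genes lower). Synj1, Inpp5f and Gak lay below CALM-AF10 without overlap and 0 members above, where 3.55% of all genes lay below and 2.14% above. CALM-AF10 stood below CALM-AF10 ΔOM-LZ for 25 members (median -0.03, 48.6% of all genes lower), and for 31 after quantile normalization (45.3% of all genes lower). Dab2, Arrb2 and Synj1 lay below without overlap and Cltb above, where 2.13% of all genes lay below and 4.81% above. Against the mean of CALM-AF10 and CALM-AF10 ΔOM-LZ, the minimal fusion stood lower for 29 members (median -0.0849, 50.6% of all genes lower). That median was -0.0486 after quantile normalization and -0.0509 after median centring (27 lower in each), where 44.0% and 38.7% of all genes were lower. Synj1 and Gak lay below all 6 of those arrays and 0 members above, where 1.25% of all genes lay below and 0.597% above. The 3 fusions together stood below MIG for 26 members (median -0.0497, 47.4% of all genes lower). The median was -0.0325 after quantile normalization (43.5% of all genes lower) and -0.0288 after median centring (41.1% of all genes lower). Only Itsn2 lay below MIG without overlap in all 3 fusions, and 0 members lay above (0.767% of all genes).

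Neighbouring uptake genes outside the list were examined in the same way. Of a wider list of 73 such genes 71 were measured, and 0 passed the adjusted threshold in any comparison (10 at an unadjusted p under 0.05 between the minimal fusion and MIG, all lower). Those 10 are 14.1% of the 71, against 7.72% of all genes in either direction and 4.22% lower. Between the minimal fusion and MIG 53 stood lower (47.9% of all genes did) and 18 higher, with a median of -0.19. That median was -0.13 after quantile normalization and -0.15 after median centring, against 0.03 and 0.05 for all genes. Against MIG, CALM-AF10 had 50 lower (median -0.12, 48% of all genes lower) and CALM-AF10 ΔOM-LZ 41 lower (median -0.04, 47.4% of all genes lower). Pik3c2a, the lipid kinase that makes the phosphoinositide of maturing pits, read 8.38, 8.71 and 8.36 in MIG and 7.96, 7.60 and 7.71 in the minimal fusion. All 3 minimal fusion arrays lay below all MIG arrays (log2 fold change -0.73, SE 0.16, adjusted p = 0.307). Rabgef1, an activator of the early endosome GTPase Rab5, read 8.82, 8.69 and 8.96 and 8.30, 8.36 and 8.27 in these groups, again without overlap (-0.51, SE 0.11, adjusted p = 0.307).

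The lowest p-values of the wider list for the other fusions belonged to genes that overlapped MIG. Igf2r, the receptor for mannose-6-phosphate cargo, differed by -0.50 in CALM-AF10 (adjusted p = 0.854), and the Eps15-binding gene Reps2 by -0.33 (adjusted p = 0.865). In CALM-AF10 ΔOM-LZ the lowest were Ston1, a stonin adaptor (-0.24), and Cavin1, a coat protein of caveolae (-0.48), both with an adjusted p of 0.999. The probe sets of Igf2r, Reps2, Ston1 and Cavin1 were at the 45.4th, 17.9th, 32.5th and 60.4th percentiles of brightness. By group, the medians between the minimal fusion and MIG ran from -0.33 for 10 early endosome genes and -0.32 for 9 cargo receptors to -0.06 for 12 AP1 and GGA adaptors of the Golgi and 13 other bending and actin genes. Genes of clathrin-independent uptake gave -0.29 (7 of 8 lower). The cargo receptors Kit and Csf1r are also on the marker lists, and the median of the cargo receptors is the value of Kit. Mllt10, the gene of AF10, read 10.33, 10.48 and 10.64 in MIG and 10.56, 10.21 and 10.31 in the minimal fusion, with overlap.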

How the data were processed

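Per the submitters' processing notes, the authors made the deposited values with Affymetrix Expression Console. The log2 scale was read from the deposited values (2.88 to 14.27, array medians 6.58 to 6.69). The version, the summarization and how arrays were scaled are not named in any label or file used here. Of 35556 probe sets, 23410 had a gene symbol and were tested, and 21789 of them had 1 symbol. Another 2 probe sets naming a member beside other genes were not used. Members with several probe sets (3) were represented by the brightest. limma 3.58.1 in R 4.3.3 fitted 1 mean per construct over 12 arrays (8 residual degrees of freedom), and the code was tested on simulated data. P-values are two-sided and adjusted by Benjamini-Hochberg over the 23410 probe sets. Members, roles and lists were chosen with earlier results of these data known, and 3 listed symbols were updated by synonym. Values of every array are given for the 8 members with the lowest F test p, the 2 with the lowest p in each comparison, the clathrin chains and the ANTH genes. For the wider list, the 2 lowest p against MIG for each fusion are named. Whether replicate numbers pair arrays was checked by correlating same-numbered deviations from group means. Every pair exceeded 0.1 only between CALM-AF10 and CALM-AF10 ΔOM-LZ (0.70 to 0.73), a pairing seen in the data and not in the labels. Minimal fusion replicates 1, 2 and 3 gave 0.72, 0.39 and -0.20 with CALM-AF10. With CALM-AF10 ΔOM-LZ they gave 0.62, 0.07 and -0.07. MIG replicate 1 gave -0.47 with CALM-AF10, -0.51 with CALM-AF10 ΔOM-LZ and -0.60 with the minimal fusion. MIG replicates 2 and 3 ranged from -0.35 to 0.15. 3 arrays per construct limit the precision.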

Additional observations from a re-analysis of the deposited data

How the results depend on the processing

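Under the 10 alternatives and without any 1 array, 0 members passed the threshold in any limma comparison or F test that was run. The alternative without Dab2 and Dnm3 held no threshold test. Fits of only the arrays compared and paired fits held no F test and not all of the 8 comparisons. The 16 log2 fold changes of single members that were followed kept their direction wherever they were fitted. The adjusted p of Arrb1 between the minimal fusion and MIG was lowest, at 0.272, without MIG replicate 2. Constructs are compared below as minimal fusion (minimal), CALM-AF10 and ΔOM-LZ, and counts are of all probe sets past the threshold. The causes of the shifts were not tested.

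After quantile normalization the members' median was -0.0501 for minimal against MIG and -0.00823 against CALM-AF10, where all genes had 0.0316 and 0.00655. The module mean difference was then -0.0211 for minimal against CALM-AF10 and -0.0930 for CALM-AF10 against ΔOM-LZ, and counts were 2 for minimal against CALM-AF10 and 5 in the F test. After median centring the median for minimal against MIG was -0.0543 (0.0513 for all genes) and the module mean difference -0.0818. With a variance trend and robust fit, counts were 8 for minimal against ΔOM-LZ and 7 against the other fusions together. With only the arrays compared, counts were 0 for minimal against MIG, CALM-AF10 or ΔOM-LZ, and 2 against the other fusions together. With all probe sets tested, counts were 20 for minimal against MIG, 1 for CALM-AF10 against MIG, 2 for ΔOM-LZ against MIG, 3 for minimal against CALM-AF10, 17 against ΔOM-LZ, 3 for all fusions against MIG, 18 for minimal against the other fusions and 12 in the F test.

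With replicate number as a block over 12 arrays, counts were 1 for minimal against MIG, 0 against CALM-AF10, 0 for all fusions against MIG and 1 in the F test. In paired fits of the constructs compared, the block gave 0 for minimal against MIG, 52 against ΔOM-LZ and 1 for CALM-AF10 against ΔOM-LZ. No member was among the calls of these fits.

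Leaving out 1 array at a time, counts ranged from 1 to 9 for minimal against MIG (1 without MIG replicate 3, 9 without MIG replicate 2), 0 to 1 for CALM-AF10 against MIG and 0 to 4 for ΔOM-LZ against MIG. They ranged from 0 to 1 for minimal against CALM-AF10, 1 to 5 against ΔOM-LZ, 1 to 5 against the other fusions, 0 to 9 for all fusions against MIG and 0 to 3 in the F test. The members' median for minimal against ΔOM-LZ ranged from -0.13 without ΔOM-LZ replicate 2 to -0.0613 without ΔOM-LZ replicate 1. It ranged from -0.0506 to -0.00442 for CALM-AF10 against MIG, -0.0208 to 0.01 for ΔOM-LZ against MIG, -0.10 to -0.0403 for minimal against CALM-AF10, -0.0619 to -0.0126 for CALM-AF10 against ΔOM-LZ, -0.0758 to -0.0263 for all fusions against MIG and -0.12 to -0.0513 for minimal against the other fusions. The module mean difference for CALM-AF10 against ΔOM-LZ was -0.0184 without ΔOM-LZ replicate 1, and that for ΔOM-LZ against MIG ranged from -0.0343 to 0.0170. Leaving out dim probe sets removed 2 members from the test.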
